A study of Mus musculus with 6 samples.

Results

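Interferon-response and class I presentation genes were followed in CD4-CD8- double-negative (DN) cells of cultured fetal mouse thymus after exposure to TCDD (2,3,7,8-tetrachlorodibenzo-p-dioxin), a ligand of the aryl hydrocarbon receptor (AHR). The members were 39 named genes, each taken with its brightest probe set that carries a single gene symbol. Of these, 36 were measured among 12393 genes in all, and Isg15, Ifi44 and Xaf1 had no such probe set. The 36 comprised 16 antiviral effectors, 6 GTPases, 7 class I presentation genes, 5 STAT and IRF factors and 2 chemokines.

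Lobes of C57BL/6 fetuses from gestation day 15 were kept in organ culture for 6 days, to an age of dpc 21 (days post coitum), and DN cells were isolated with CD4 and CD8 magnetic beads. The groups were thymocytes from the lobes with 10 nM TCDD (1 array), thymocytes with dioxane (1 array), emigrants flushed off the lobes with 10 nM TCDD (2 arrays) and emigrants with dioxane (2 arrays). Dioxane was the solvent of TCDD and is given as 0.1% by volume for thymocytes. RNA came from pooled DN cells, was amplified, and went onto Affymetrix arrays, 1 for each sample. The sample titles give the TCDD emigrant arrays the numbers 1 and 2, and a dioxane emigrant array the number 2. The other dioxane emigrant array has no number in its title and is called number 1 here. Arrays of the same source and number are set against each other as a pair. Whether a pair shares a culture, and whether replicate arrays stem from separate cultures, is not stated, so the p-values reflect array-to-array spread that may be technical.

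Type I interferons signal through a complex that includes STAT2 and IRF9 and binds the interferon-stimulated response element in front of antiviral genes. Interferon gamma acts on the gamma-activated sequence, and strongly induces guanylate-binding and immunity-related GTPases, IRF1, and the immunoproteasome and peptide transporter that load class I molecules. In the thymus, class I molecules on epithelial cells select CD8 T cells. The AHR partners with ARNT and binds its own response element.

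Promoter sequences are shown for members on which the results turn. The 250 bases before each gene start were read from RefSeq promoter windows (GRCm38.p6), and 31 of the 36 members had a window. The interferon-stimulated response element was searched as GAAA, any 2 bases and GAAA again, the gamma-activated sequence as TTCNNNGAA and the AHR element core as TNGCGTG, each on both strands. The first was found in 12 of 31 members (38.7%) and in 3.46% of 27025 genes, or 2.98% of 32851 windows. The second was found in 7 of 31 (22.6%) against 8.13% of genes and 7.02% of windows, and 1 of the 17 matches of the first motif in members overlapped a match of the second. The AHR core was found in 2 of 31 (6.45%) against 4.76% of genes and 4.10% of windows. A match describes letters and does not show binding.

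The first 4 sequences below have the interferon-stimulated response element in capitals: Ifit1 (chr19:34640639-34640888, plus strand), Cxcl10 (chr5:92348890-92349139, minus strand), Igtp (chr11:58199306-58199555, plus strand) and Rsad2 (chr12:26456453-26456702, minus strand). The first 3 were at least 2-fold higher with TCDD in both thymocytes and emigrants numbered 2, and Rsad2 differed in opposite directions in the emigrant pairs. Ifitm1 (chr7:140967826-140968075, plus strand) had the smallest p of the members and holds none of these 3 motifs in this window. The Tap1 sequence (chr17:34187306-34187555, plus strand) has the AHR core in capitals. Psmb9 is transcribed the other way from the same interval, so both genes share that match.
Ifit1: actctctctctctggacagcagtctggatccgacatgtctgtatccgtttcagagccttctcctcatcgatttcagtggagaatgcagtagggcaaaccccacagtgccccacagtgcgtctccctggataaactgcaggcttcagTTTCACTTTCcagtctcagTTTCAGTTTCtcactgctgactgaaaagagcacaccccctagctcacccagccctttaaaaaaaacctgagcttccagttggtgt
Cxcl10: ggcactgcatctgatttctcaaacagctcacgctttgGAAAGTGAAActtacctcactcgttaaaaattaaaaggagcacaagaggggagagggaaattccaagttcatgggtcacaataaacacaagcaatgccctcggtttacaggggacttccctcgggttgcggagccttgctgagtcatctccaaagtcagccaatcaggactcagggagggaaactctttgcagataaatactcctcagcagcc
Igtp: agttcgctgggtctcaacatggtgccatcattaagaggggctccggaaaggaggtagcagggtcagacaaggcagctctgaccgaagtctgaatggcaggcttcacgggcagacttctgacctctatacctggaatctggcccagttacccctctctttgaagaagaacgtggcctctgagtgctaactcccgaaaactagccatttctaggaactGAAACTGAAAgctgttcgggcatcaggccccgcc
Rsad2: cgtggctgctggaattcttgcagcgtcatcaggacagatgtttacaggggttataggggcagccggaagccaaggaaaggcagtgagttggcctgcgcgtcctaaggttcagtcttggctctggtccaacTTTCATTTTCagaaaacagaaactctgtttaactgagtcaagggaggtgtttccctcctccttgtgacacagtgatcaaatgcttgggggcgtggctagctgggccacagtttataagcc
Ifitm1: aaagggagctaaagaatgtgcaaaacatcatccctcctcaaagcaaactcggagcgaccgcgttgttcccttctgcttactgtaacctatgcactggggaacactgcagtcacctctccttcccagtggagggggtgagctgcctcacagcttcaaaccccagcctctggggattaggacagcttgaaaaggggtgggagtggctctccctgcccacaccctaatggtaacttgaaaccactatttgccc
Tap1: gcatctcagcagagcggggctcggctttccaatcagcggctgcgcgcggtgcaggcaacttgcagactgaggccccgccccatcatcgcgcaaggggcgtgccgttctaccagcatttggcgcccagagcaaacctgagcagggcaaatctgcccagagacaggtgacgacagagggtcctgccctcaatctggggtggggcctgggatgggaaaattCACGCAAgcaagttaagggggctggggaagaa

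Values are RMA levels on the log2 scale, on which a difference of 1 unit is 2-fold. Array medians lay between 4.84 and 4.88. Probe sets for bacterial transcripts, a guide to signal without target, reached 4.32 to 4.92 depending on the array, and a value below the top control on the same array is called background here. By this measure 30 of the 36 members were above background on all 6 arrays. Ifit2 and Stat2 were above it on 4 arrays, Zbp1 and Cxcl9 on 3, Mx1 on 2 and Eif2ak2 on 0, so differences that involve their low values are bounds. In bulk RNA, fewer cells of a type and less RNA per cell cannot be told apart.

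AHR target genes checked the treatment, and they differed little in the emigrant pair numbered 1. Cyp1b1, a monooxygenase, measured 10.35 (thymocytes), 5.90 (emigrants numbered 1) and 8.95 (emigrants numbered 2) with TCDD, and 6.73, 4.66 and 4.72 in the same order with dioxane. Tiparp, an ADP-ribosyltransferase that dampens the AHR, measured 9.35, 6.66 and 9.82 with TCDD against 6.29, 6.66 and 6.33 with dioxane, and Ahrr, the AHR repressor, 7.84, 4.04 and 7.50 against 4.05, 4.45 and 3.76. The targets were thus far higher with TCDD in thymocytes and in emigrants numbered 2, while between the arrays labelled TCDD and dioxane in emigrants numbered 1 only Cyp1b1 differed by over 2-fold. For that pair, TCDD and dioxane are therefore given as labelled throughout, and results are given with and without it. RNA quality measures also differed between arrays: actin probe sets at the 3' end exceeded those at the 5' end by 4.15, 3.77 and 3.36 with TCDD against 3.48, 3.06 and 3.01 with dioxane. For Gapdh the same excess was 5.86, 5.60 and 4.75 with TCDD against 6.10, 4.75 and 4.69 with dioxane, lower with TCDD in thymocytes. The part of RNA quality in the results was not tested.

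Transcripts of other cells also differed between arrays. Genes of macrophages and dendritic cells (16 measured) had summed linear levels of 2574, 20380 and 12220 with TCDD in thymocytes, emigrants numbered 1 and emigrants numbered 2, against 1498, 18190 and 5493 with dioxane. Csf1r, the receptor that defines macrophages, measured 7.57, 12.39 and 10.47 with TCDD against 7.54, 12.59 and 8.64 with dioxane, while Itgam was under background on every array. DN T-lineage genes (11 measured) summed to 3739, 767.3 and 2200 with TCDD against 10190, 765.3 and 7815 with dioxane. Linear sums weigh the brightest genes most. On the dioxane arrays of thymocytes and emigrants numbered 2 the brightest of the list was Dntt. It measured 9.10, 7.65 and 5.61 with TCDD against 12.36, 7.52 and 11.96 with dioxane. Of the 11 genes, 1, 7 and 3 were higher with TCDD in the same order of pairs. Cd3e, a chain of the T-cell receptor complex, was well above background on all 6 arrays (6.99 to 8.91), but Rag1, which rearranges receptor genes, measured 7.00, 4.03 and 3.61 with TCDD against 9.70, 3.72 and 9.99 with dioxane. It was thus under background in 3 of the 4 emigrant arrays. The part of these cells in the results below was not tested.

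**Figure D1:**
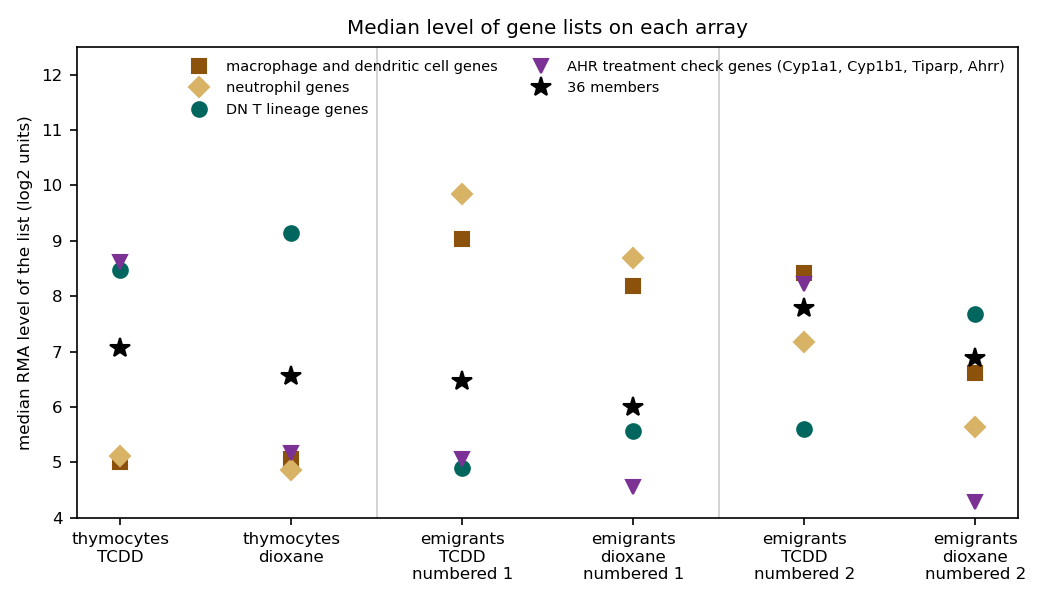
Median RMA level (log2 units) of 4 gene lists and of the 36 members on each of the 6 arrays, with each TCDD array left of its dioxane partner. Neutrophil genes are highest on the emigrant arrays numbered 1, macrophage and dendritic genes on the TCDD emigrant arrays, DN T-lineage genes on the thymocyte arrays, and AHR targets on 2 of the 3 TCDD arrays.

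The first question was how the members differed with TCDD over both cell sources (3 arrays with TCDD, 3 with dioxane, cell source in the fit). The fitted difference was above 0 for 29 of 36 members, against 47.2% of all genes, and its median was 0.30 log2 units against -0.02 over all genes. The 4 members with the smallest p, Ifitm1, Ifit1, Psmb10 and Oasl2, were higher by 1.57 ± 0.29, 1.42 ± 0.35, 1.15 ± 0.27 and 1.01 ± 0.31 (log2, SE, n = 3 each). None of these passed: limma called 0 of 12393 genes at an adjusted p under 0.05 (0% in either direction, smallest adjusted p = 0.483), and Ifitm1 had an adjusted p of 0.742. At an unadjusted p under 0.05 stood 4 members, those 4, all higher, against 2.69% of all genes in that direction and 5.32% in either. The members' median was 0.71 without the TCDD emigrant array numbered 1, 0.022 without the TCDD emigrant array numbered 2, and 0.45 without both arrays numbered 1. In the fit without both arrays numbered 1, Cxcl10 was higher by 2.18, Ifit1 by 1.64 and Igtp by 1.29 (log2, n = 2 each). That fit had 1 array for each source and treatment. Its SE and p-values would hold only the disagreement between pairs, with no replicate spread, and are not given.

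By pairs, the members were mostly higher with TCDD in emigrants numbered 2, less so in thymocytes, and evenly divided in emigrants numbered 1. Higher with TCDD were 32 of 36 in emigrant pair 2 (45.3% of all genes), 24 in thymocytes (51.5%) and 18 in emigrant pair 1 (48.2%), with medians of 0.57, 0.26 and 0.00 log2 units against -0.02, 0.01 and -0.02 over all genes. At least 2-fold higher were 10, 8 and 5 members in the same order of pairs, against 3.43%, 2.83% and 3.66% of all genes. At least 2-fold lower were 0, 0 and 3 (2.16%, 2.79% and 2.56% of all genes). All 3 pairs agreed on higher for 14 members, against 15.4% of all genes, and on lower for 1, Trim25, against 17.4%. In 6 members each TCDD array exceeded each dioxane array: Ifit1, Oasl2, Ifi35, Ifitm1, Ifitm3 and Psmb10, against 3.47% of all genes, and the reverse held for 0 members, against 4.61%. Of thymocytes and emigrants numbered 2 alone, 23 members were higher in both (28.8% of all genes) and 3 lower in both (32.0%). There, 4 members were at least 2-fold higher in both, Ifit1, Ifitm1, Igtp and Cxcl10, against 0.952% of all genes.

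**Figure D2:**
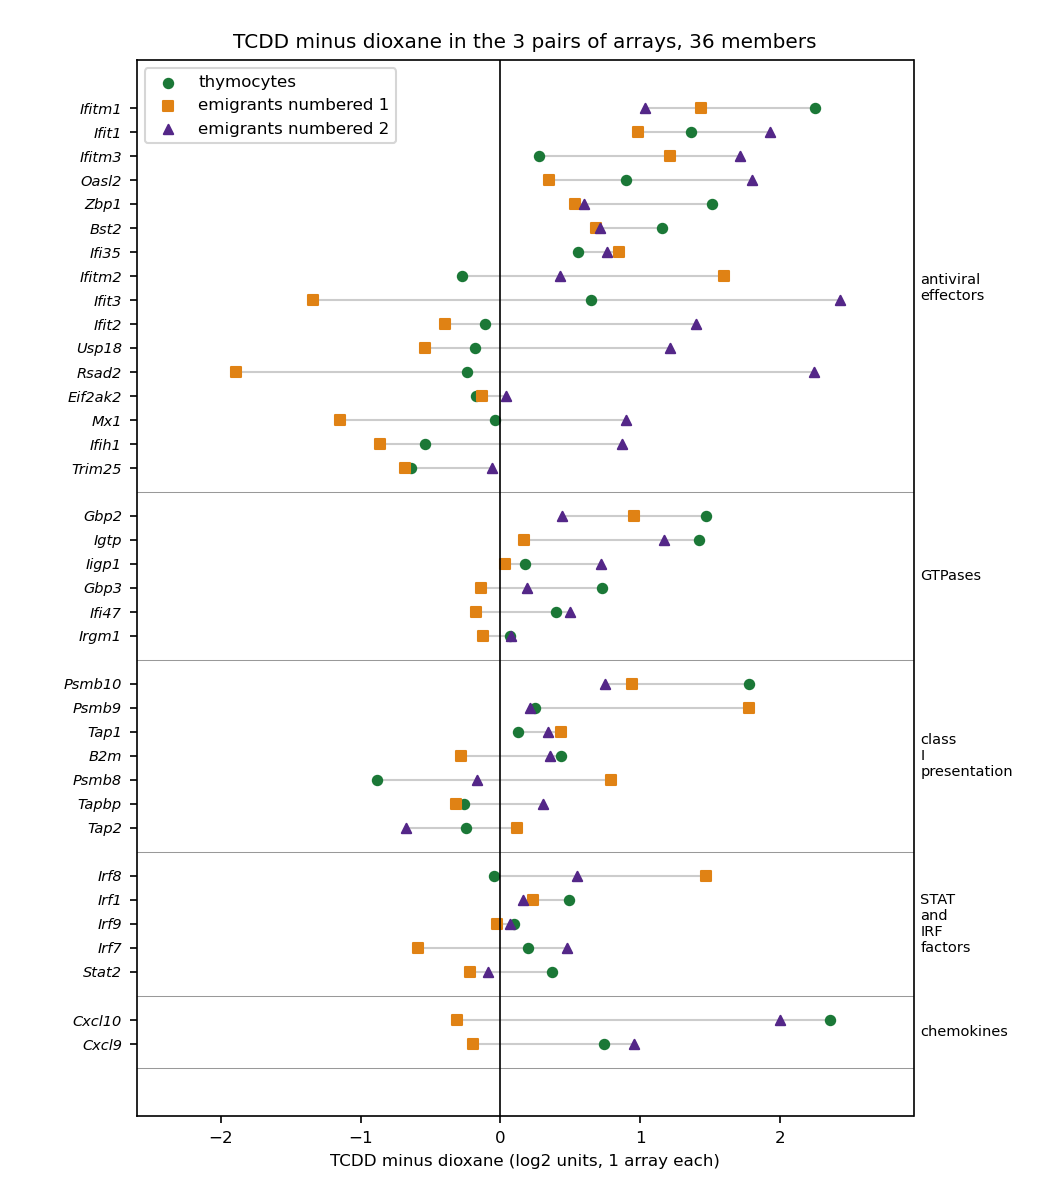
TCDD minus dioxane (log2 units) for each of the 36 members in thymocytes (circles), emigrants numbered 1 (squares) and emigrants numbered 2 (triangles), grouped by role and ordered by the mean of the 3 pairs. Each point is a difference between 2 arrays, and 14 members lie to the right of 0 in all 3 pairs.

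Among the antiviral effectors, 7 of 16 were higher with TCDD in all 3 pairs (Ifit1, Oasl2, Ifi35, Bst2, Ifitm1, Ifitm3 and Zbp1), against 15.4% of all genes. The subgroup median difference was 0.12 for the thymocyte pair, 0.11 for the emigrant pair numbered 1 and 0.96 for that numbered 2. Over the effectors at or above the median level of all genes, the first 2 of these were 0.41 and 0.52. Ifit1, which binds viral RNA, measured 6.88, 6.25 and 7.52 with TCDD in thymocytes, emigrants numbered 1 and emigrants numbered 2, against 5.52, 5.27 and 5.59 with dioxane. Every TCDD array exceeded every dioxane array, and the dioxane arrays lay within 0.33 units of each other in emigrants. Oasl2, a 2'-5' oligoadenylate synthetase-like protein, measured 6.79, 5.93 and 6.94 against 5.89, 5.58 and 5.15 in the same order. Here the TCDD array of emigrants numbered 1 was only just above the dioxane thymocytes.

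The interferon-induced transmembrane proteins restrict virus entry at membranes and are close paralogs. Ifitm1 measured 12.29, 10.16 and 10.39 with TCDD against 10.05, 8.73 and 9.36 with dioxane, with the largest difference in thymocytes. Ifitm3 measured 8.48, 9.59 and 8.87 with TCDD against 8.21, 8.38 and 7.16 with dioxane, with the largest difference in emigrants numbered 2. Ifitm2 measured 6.77, 8.03 and 6.55 against 7.04, 6.43 and 6.13, so it was lower with TCDD in thymocytes and higher in both emigrant pairs. The fitted difference over both sources was 1.06 ± 0.44 for Ifitm3 and 0.58 ± 0.47 for Ifitm2 (log2, SE, n = 3 each), and neither passed (limma adjusted p = 0.943 and 0.999). Without the dioxane emigrant array numbered 2, that of Ifitm3 was 0.60.

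Ifi35, Bst2 and Zbp1 were also higher with TCDD in each pair. Ifi35, an interferon-induced regulator of signalling, measured 6.56, 6.50 and 7.22 with TCDD against 6.00, 5.66 and 6.46 with dioxane, a difference of 0.56 to 0.84 units in each pair. Bst2, or tetherin, which holds budding virus at the cell surface, measured 7.70, 6.24 and 7.58 against 6.54, 5.55 and 6.87, so its groups overlapped. Zbp1, a sensor of Z-form nucleic acid, measured 6.13, 4.83 and 6.05 against 4.62, 4.30 and 5.46, and its values in emigrants numbered 1 and in dioxane thymocytes lay under background. Both of its probe sets gave the same sign in each pair.

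A further set of effectors differed in opposite directions in the emigrant pairs. Rsad2, or viperin, an enzyme that makes a chain-terminating nucleotide, measured 8.77, 9.85 and 10.32 with TCDD against 9.01, 11.74 and 8.09 with dioxane. The highest value of all 6 was thus the dioxane emigrant array numbered 1, and the difference was -1.89 in that pair and 2.24 in emigrants numbered 2. Ifit3, a partner of Ifit1, measured 6.02, 5.02 and 8.07 with TCDD against 5.37, 6.36 and 5.65 with dioxane, or -1.34 and 2.42 in the emigrant pairs. Ifih1, the RNA sensor MDA5, measured 7.55, 8.18 and 8.21 against 8.09, 9.04 and 7.34. Usp18, which removes ISG15 and dampens type I signalling, measured 7.24, 5.39 and 7.45 against 7.42, 5.93 and 6.24. Ifit2 and Mx1, an antiviral dynamin-like GTPase, differed by -0.40 and -1.15 in emigrant pair 1, and by 1.40 and 0.89 in emigrant pair 2. These 6 genes were lower with TCDD in emigrants numbered 1 and higher in emigrants numbered 2, and in thymocytes Rsad2, Ifih1 and Usp18 differed by -0.24, -0.54 and -0.18 and Ifit3 by 0.65. The thymocyte values of Mx1 and the dioxane value of Ifit2 there were background. So were both genes on the TCDD emigrant array numbered 1, and Mx1 on the dioxane emigrant array numbered 2. The emigrant differences of Mx1, and that of Ifit2 in emigrant pair 1, are therefore bounds. The fitted difference of Rsad2 over both sources was 0.04 ± 0.92 (log2, SE, n = 3 each, limma adjusted p = 0.999), and it was -1.05 without the dioxane emigrant array numbered 2, -0.14 without the TCDD emigrant array numbered 2 and 1.00 without both arrays numbered 1. The 3 probe sets of Rsad2 agreed in sign in both emigrant pairs but not in thymocytes, where another probe set gave 1.01 in place of -0.24.

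Trim25, the ubiquitin ligase that activates the RNA sensor RIG-I, was the member lower in all 3 pairs, at 10.21, 9.92 and 10.07 with TCDD against 10.85, 10.60 and 10.13 with dioxane. Its difference was -0.06 in emigrants numbered 2, and its 3 probe sets differed in sign in both emigrant pairs. The fitted difference was -0.46 ± 0.19 (log2, SE, n = 3 each, limma adjusted p = 0.942). Eif2ak2, the double-stranded RNA-dependent kinase PKR, read 3.88 to 4.24 on all arrays and was background.

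**Figure D3:**
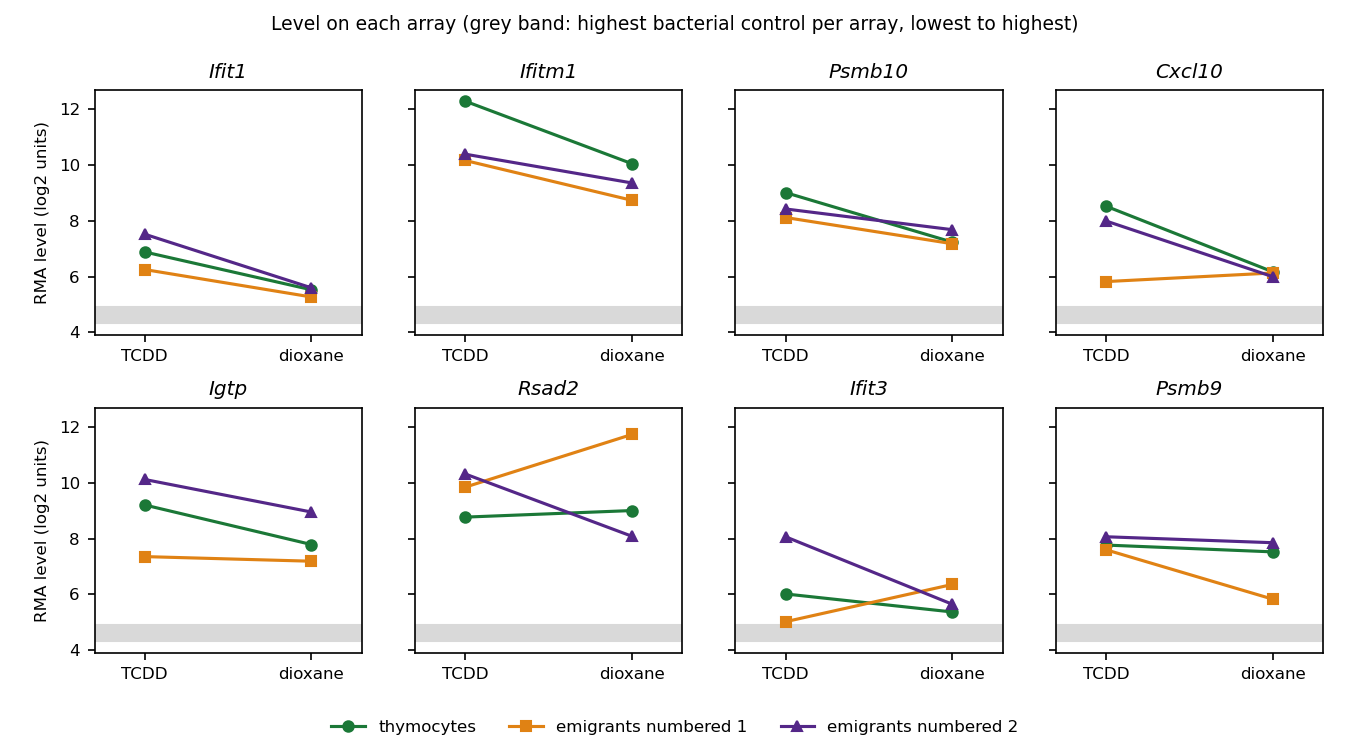
RMA levels (log2 units) of 8 members on each array, with lines joining the TCDD and dioxane arrays of a pair. Ifit1, Ifitm1 and Psmb10 are higher with TCDD in all 3 pairs, Cxcl10 in thymocytes and emigrants numbered 2, and Rsad2 and Ifit3 run in opposite directions in the emigrant pairs. The grey band spans the highest bacterial control of each array, 4.32 to 4.92.

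The GTPases defend against intracellular pathogens by attacking their vacuoles. All 6 were higher with TCDD in thymocytes and in emigrants numbered 2, with medians of 0.56 and 0.47. Of all genes, 28.8% were higher in both. In emigrants numbered 1, 3 of 6 were higher, with a median of -0.05, against 48.2% of all genes. Igtp (Irgm3), which guards host membranes, measured 9.21, 7.36 and 10.12 with TCDD against 7.79, 7.19 and 8.96 with dioxane. Gbp2, a guanylate-binding protein that coats such vacuoles, measured 7.83, 7.03 and 8.97 against 6.36, 6.08 and 8.52, and both of its probe sets gave the same sign. In both genes the dioxane emigrant array numbered 2 was above the TCDD emigrant array numbered 1, so the groups overlapped. Iigp1, Gbp3, Ifi47 and Irgm1 differed by 0.17, 0.73, 0.39 and 0.07 (thymocytes), by 0.03, -0.14, -0.18 and -0.13 (emigrant pair 1) and by 0.72, 0.19, 0.50 and 0.08 (emigrant pair 2). The other probe set of Iigp1, above background on only 2 arrays, gave -0.65 in emigrant pair 1 in place of 0.03. In the fit over both sources the 6 differences ranged between 0.01 and 0.95, each with a limma adjusted p of 0.999. These rest on single emigrant arrays: Igtp (0.92) was 1.78 without TCDD 1, 0.20 without TCDD 2, 0.49 without dioxane 1 and 1.49 without dioxane 2. Gbp2 (0.95) was 1.58, 0.48, 0.33 and 1.73 under the same omissions.

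Class I presentation genes differed among themselves. Psmb10, the immunoproteasome subunit beta2i, measured 9.01, 8.12 and 8.42 with TCDD against 7.23, 7.18 and 7.68 with dioxane, and the groups did not overlap. Psmb9 (beta1i) measured 7.77, 7.60 and 8.07 against 7.53, 5.83 and 7.86, so most of its difference came from 1 low dioxane array, that of emigrants numbered 1. Psmb8 (beta5i) measured 8.72, 8.29 and 9.47 against 9.60, 7.50 and 9.64, lower with TCDD in thymocytes by 0.88 and higher in emigrants numbered 1 by 0.79. The 3 immunoproteasome subunits thus differed from each other: Psmb10 was higher by at least 0.74 in each pair, Psmb9 by at least 0.21, and Psmb8 differed in sign between pairs.

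The transporter and the light chain were flatter. Tap1 and Tap2, which together form the peptide transporter, differed by 0.12 and -0.24 (thymocytes), 0.43 and 0.12 (emigrant pair 1) and 0.34 and -0.68 (emigrant pair 2). Tapbp, or tapasin, which tethers class I to the transporter, lay between 9.08 and 9.58 on all arrays. B2m, the class I light chain, measured 12.21 to 12.49 with TCDD against 11.99 to 12.49 with dioxane. Its difference was 0.43, -0.28 and 0.36 in the 3 pairs, and the fit gave 0.17 ± 0.19 (log2, SE, n = 3 each, limma adjusted p = 0.999). Tap1, which shares its upstream interval with Psmb9, had other probe sets of opposite sign in both emigrant pairs, and those lay at or near background.

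Of the transcription factors, Irf1, an interferon gamma-induced activator, was higher with TCDD in all 3 pairs by 0.49, 0.23 and 0.16. Irf8, a factor of myeloid and dendritic cell development, measured 4.85, 6.53 and 6.17 with TCDD against 4.90, 5.06 and 5.62 with dioxane. Of the 16 macrophage and dendritic genes, 11 were higher with TCDD in emigrant pair 1 (48.2% of all genes) and 16 in pair 2 (45.3%). Irf8 was higher in both emigrant pairs too, and the part of these cells in its difference was not tested. Its fitted difference in emigrants was 1.01 ± 0.31 (log2, SE, n = 2 each) and did not pass (limma adjusted p = 1.00). The other probe set of Irf8, above background on 4 arrays, differed by only 0.09 and 0.175 in the emigrant pairs and 0.19 in thymocytes. Irf7, which amplifies type I interferon production, had differences of 0.20, -0.59 and 0.48. Irf9 and Stat2, the DNA-binding partner and the activator of the type I complex, stayed within 0.37 units in every pair, and Stat2 was near background.

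The chemokines Cxcl9 and Cxcl10 attract T cells through CXCR3. Cxcl10 measured 8.52, 5.82 and 7.99 with TCDD against 6.17, 6.13 and 5.99 with dioxane. The 3 dioxane arrays lay close together, and the TCDD arrays of thymocytes and emigrants numbered 2 stood 2.36 and 2.00 above their partners, while that of emigrants numbered 1 was 0.31 below. Its fitted difference was 1.35 ± 0.63 over all arrays (log2, SE, n = 3 each, limma adjusted p = 0.986). It was 0.84 without either thymocyte array, 2.11 without the TCDD emigrant array numbered 1 and 0.87 without the one numbered 2. Cxcl9 followed the same pattern at lower levels, 5.18, 4.83 and 5.28 against 4.44, 5.03 and 4.33, with the TCDD value of emigrants numbered 1 and the dioxane values of thymocytes and emigrants numbered 2 under background.

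Within the emigrants alone (2 arrays with TCDD, 2 with dioxane), the median of the members' fitted differences was 0.38 against -0.02 over all genes, and 28 of 36 were above 0 against 46.5% of all genes. Both TCDD arrays exceeded both dioxane arrays in 8 members, against 10.5% of all genes, and were below both in 1, against 14.2%. Omitting a TCDD array gave a median of 0.95 (number 1 left out) or -0.13 (number 2 left out), and omitting a dioxane array gave 0.11 (number 1) or 0.81 (number 2). limma called 0 of 12393 genes (0%) here too, with 5 members at an unadjusted p under 0.05, all higher, against 1.24% of genes in that direction and 2.06% in either. These were Ifitm1 (1.23 ± 0.31), Irf8 (1.01 ± 0.31), Ifit1 (1.46 ± 0.48), Psmb10 (0.84 ± 0.29) and Ifitm3 (1.46 ± 0.52; log2, SE, n = 2 each).

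Members also differed between the emigrant arrays numbered 2 and 1 of the same treatment. Both arrays numbered 2 exceeded both numbered 1 in 16 members, against 24.0% of all genes, and were below both in 1, Stat2, against 30.6%. The 16 held 5 of 6 GTPases, 4 of 7 class I genes (Psmb8, Psmb9, Tap1 and Tap2), Irf1 and Irf9, and 5 of 16 antiviral effectors. Number 2 was higher in 32 members with TCDD, against 47.2% of all genes, and in 21 with dioxane, against 46.2%. At least 2-fold higher on number 2 were 17 members with TCDD, against 5.87% of all genes, and 12 with dioxane, against 7.83%. At least 2-fold lower were 1 with TCDD, against 3.81%, and 3 with dioxane, against 4.71%. The GTPases had median differences (number 2 minus 1) of 1.87 with TCDD and 1.36 with dioxane, and the class I genes of 0.47 and 1.65. Irf1 measured 9.33 and 7.97 on numbers 2 and 1 with TCDD, and 9.17 and 7.74 with dioxane. The antiviral effectors differed from these subgroups in having a median of 0.87 with TCDD and -0.15 with dioxane, with Rsad2 at -3.65 with dioxane. The macrophage genes ran the other way, with medians of -0.63 with TCDD and -1.93 with dioxane, as did neutrophil genes (-2.40 and -2.54) and erythroid genes (-2.31 and -1.08). The DN T-lineage genes had -0.12 and 2.25. With 1 array for each number and treatment, these differences were not tested.

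**Figure D4:**
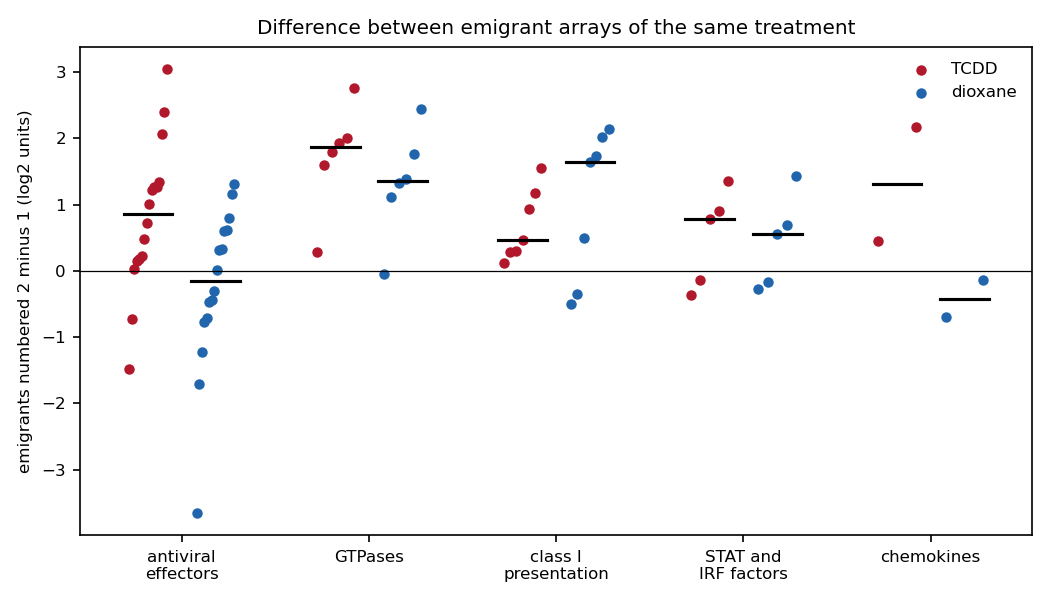
Difference between emigrant arrays numbered 2 and 1 (log2 units) for each member, with TCDD arrays left and dioxane arrays right in each subgroup; bars are medians. The GTPases are above 0 under both treatments except Gbp3 with dioxane, and the antiviral effectors centre near 0 with dioxane.

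Between cell sources, the members went both ways (4 emigrant and 2 thymocyte arrays, treatment in the fit). Their median difference was -0.05 log2 units against -0.04 over all genes, and 16 of 36 were higher in emigrants against 44.0% of all genes. The median was 0.17 without the TCDD emigrant array numbered 1 and -0.20 without the one numbered 2. Ifitm1 was lower in emigrants by 1.51 ± 0.31 (the difference is -1.51, limma adjusted p = 0.408), and Irf8 was higher by 0.97 ± 0.32 (limma adjusted p = 0.616). The other probe set of Irf8, above background on 4 arrays, measured 4.46 to 4.90 in emigrants and 4.34 to 4.53 in thymocytes. No gene passed (0 of 12393, 0%; 7 passed without the dioxane emigrant array numbered 2), and the 2 members named were those at an unadjusted p under 0.05, against 7.10% of all genes. The TCDD difference itself was compared between sources by an interaction term, in which 0 of 12393 genes passed (0%), with 0 members at an unadjusted p under 0.05 against 0.783% of all genes. The smallest unadjusted p of a member there was that of Irf8, whose TCDD difference was larger in emigrants by 1.05 ± 0.54 (limma adjusted p = 1.00).

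Other genes of the pathway were read from lists of ligands and receptors, further interferon-stimulated genes and further class I genes. Of the type I ligands measured, Ifna2 was above background on 6 arrays, Ifna1 on 5, Ifnb1 on 1 and Ifna4 on 0. But Ifna2 read only 4.79 to 5.36 and Ifna1 4.40 to 4.95, close to the top controls of 4.32 to 4.92. These levels do not show that either gene was expressed. Ifng, the cytokine of the type II response, measured 5.86, 4.97 and 4.28 with TCDD against 5.41, 5.81 and 6.16 with dioxane, lower with TCDD in both emigrant pairs. Its TCDD value in emigrants numbered 2 was under background, so that difference is a bound. The TCDD value in emigrants numbered 1 was just above the top control of 4.92. Socs3, a feedback inhibitor of cytokine receptors, was higher with TCDD in all 3 pairs by 1.00, 0.67 and 0.71. None of the 23 measured ligands, receptors and signalling genes passed in the fit over both sources (smallest limma adjusted p = 0.999). In that fit 15 were above 0, against 47.2% of all genes.

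The 27 further interferon-stimulated genes had medians of 0.23 (thymocytes), -0.01 (emigrant pair 1) and 0.22 (emigrant pair 2), and 5 were higher in all 3 pairs, a share near the 15.4% of all genes. Ifi27l2a, an interferon-induced mitochondrial protein, measured 5.34, 6.40 and 7.34 with TCDD against 4.30, 5.84 and 6.07 with dioxane. Its dioxane value in thymocytes was under background, so that difference is a bound. Isg20, an RNA exonuclease, measured 7.03, 7.35 and 7.36 against 5.80, 7.63 and 6.22. Trim30a, a regulator of inflammatory signalling, had differences of 1.00, -0.40 and 1.31. None of the 27 passed (fitted above 0 in 21, against 47.2% of all genes, smallest limma adjusted p = 0.811).

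Among 13 further class I genes, 4 were higher with TCDD in all 3 pairs, against 15.4% of all genes, and 3 lower, against 17.4%. H2-D1, a classical heavy chain, was among the higher, at 9.98, 10.59 and 10.79 against 9.38, 10.32 and 10.13. Erap1 was among the lower, with differences of -0.45, -0.48 and -0.54. The constitutive proteasome subunits stood beside their inducible counterparts. Psmb7, which Psmb10 replaces, was lower with TCDD by 1.69, 0.21 and 0.57 in the pairs in which Psmb10 was higher by 1.78, 0.94 and 0.74. Psmb6, which Psmb9 replaces, was higher by 0.66, 1.61 and 0.04, alongside 0.24, 1.77 and 0.21 for Psmb9. Psmb5, which Psmb8 replaces, was higher by 0.16, 0.63 and 0.02, alongside -0.88, 0.79 and -0.17 for Psmb8. None of the 13 passed (fitted above 0 in 8, against 47.2% of all genes, smallest limma adjusted p = 0.811).

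Genes of other cells were set beside the members by pair. In thymocytes 8 of 16 macrophage and dendritic genes were higher with TCDD (median -0.04), while their summed linear level was 2574 with TCDD against 1498 with dioxane, with Ly86 higher by 2.30 and Ctss by 1.02. In emigrants numbered 2 all 16 were higher (median 1.61), and in emigrants numbered 1 the median was 0.28 with 11 of 16 higher. Neutrophil genes (10 measured) had medians of 0.02, 0.94 and 1.28 in thymocytes, emigrant pair 1 and emigrant pair 2, with summed levels of 400.9, 15930 and 3192 with TCDD against 440.2, 9643 and 879.4 with dioxane. Fibroblast and endothelial genes (9 measured) had medians of -0.05, 0.36 and 1.40, with Col3a1 higher by 4.49 in emigrant pair 2. Of the endothelial genes, Pecam1 and Cdh5 were under background on every array, and Kdr differed by 0.08, 0.78 and 0.31. DN T-lineage genes had medians of -0.87, 0.13 and -0.90 in thymocytes, emigrants numbered 1 and emigrants numbered 2. The part of these cells in the differences of the members was not tested.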

How the data were processed

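Per the submitters' processing notes and the series design text, the deposited log2 values are RMA summaries from the Bioconductor affy package; no version is recorded there. They were used as deposited. Of 22690 probe sets, 64 controls, 691 with several gene symbols and 1555 without a symbol were left out, and each of 12393 genes kept its brightest single-symbol probe set over the 6 arrays. Symbols are those of the platform annotation.

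Each comparison was a linear model over all genes (limma 3.58.1, R 4.3.3), with Benjamini-Hochberg adjustment and calls at an adjusted p under 0.05. In fits that estimated each group apart, as in the interaction fit, a group with 1 array took its spread from the other groups. In the fits over both sources and between sources, the spread also held disagreement of the TCDD difference between sources. Without both emigrant arrays numbered 1, every group had 1 array, so no replicate spread was available. The code was tested on simulated data. The number of arrays limits the precision. The members, lists, comparisons and rules were chosen with earlier results of these data known. The text may name every member, the AHR check genes, and of each pathway or marker list up to 4 genes with the largest difference in the fit over both sources. Ifna1, Ifna2, Ifnb1, Ifna4, Psmb5, Csf1r, Itgam, Ly86, Ctss, Cd3e, Pecam1, Cdh5 and Kdr were named outside this rule after their values were seen. The alternatives tried were other normalisations, filters, probe set choices, priors, thresholds and covariates, a replicate block, and omission of arrays.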

Additional observations from a re-analysis of the deposited data

Results flagged for a closer look

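The TCDD difference of 3 members ran one way in thymocytes and the other way in both emigrant pairs, 3 of 36 against 20.3% of all genes. Ifitm2 was higher with TCDD by 1.60 and 0.43 in emigrants numbered 1 and 2 and differed by -0.27 in thymocytes, so that the emigrant difference exceeded the thymocyte one by 1.28 log2 units. Irf8 was higher by 1.47 and 0.55 in the emigrant pairs and differed by -0.04 in thymocytes, a gap of 1.05. Its other probe set, above background on 4 arrays, did not show this gap, at 0.09 and 0.175 in the emigrant pairs and 0.19 in thymocytes. Stat2 differed by -0.22 and -0.09 in the emigrant pairs and by 0.37 in thymocytes, a gap of -0.52, close to background, and its other probe set, under background, was 0.34 and 0.13 in the emigrant pairs. None passed the test of the difference between sources (limma adjusted p = 1.00 for each), and thymocytes had 1 array per treatment.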

How the results depend on the processing

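Of the tested comparisons, 0 members were called under every normalisation, filter, prior, probe set choice, threshold, covariate and omission tried. The numbers are not stated to mark shared cultures, and that of the dioxane emigrant array numbered 1 was assigned here. Emigrant arrays of the same number deviated together from their group means (r = 0.56 across genes). With the replicate block 0 members and 0 genes were called, as without it. Leaving out each array in turn moved the members' median from 0.022 to 0.71 over both sources, from -0.13 to 0.95 in emigrants and from -0.54 to 0.54 for the difference between sources; the number of genes called between emigrants and thymocytes ranged from 0 to 7, the highest without the dioxane emigrant array numbered 2. The difference of Rsad2 ranged from -1.05 to 1.04. The 1 member lower in all 3 pairs became 0 with quantile normalisation, cyclic loess or the mean of all probe sets. The omission of both emigrant arrays numbered 1 was added after the data were seen. Interaction fits without a thymocyte array could not be made. Genes near background are limited by signal, and 3 arrays per treatment limit all tests.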
